A study of Homo sapiens with 12 samples.

Results

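Collagens, the structural proteins of the extracellular matrix, and integrins, the receptors that anchor cells to it, were described in WM-266-4, an established human melanoma cell line. Members were the protein-coding genes whose symbols name a numbered collagen chain or an integrin alpha or beta chain, which gave 70 genes (44 collagens and 26 integrins) of the 35579 genes with a matched transcript. Of these, 57 genes (35 collagens and 22 integrins) reached 10 counts in at least 3 libraries and were tested, together with all 15248 genes that did.

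All cells carried a stable lentiviral knock-down of TYRO3, a receptor tyrosine kinase, were a puromycin-selected line rather than the parent line, and were serum-starved overnight. They were transfected with a plasmid for GFP, for TYRO3 wild-type (WT), for TYRO3 ΔGS, whose I449A substitution makes it resistant to cleavage by gamma-secretase (dGS), or for TYRO3 ΔADAM, whose P408A, L409P and G419P substitutions change predicted cleavage sites of ADAM proteases and were made to render it more resistant to them (dADAM). By the sample titles, each of 3 experiments held a library of each of the 4 groups. This gave 12 polyA RNA-seq libraries and n = 3 per group. The question was whether re-expressed TYRO3, and its cleavage, altered the transcriptome of TYRO3-depleted cells.

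Collagen chains assemble in threes into fibrils, basement membrane networks or beaded filaments, and the fibril-associated collagens decorate fibrils. An integrin is a pair of an alpha and a beta chain, and the alpha chain largely sets the ligand: alpha1, alpha2, alpha10 and alpha11 bind collagens, alpha3, alpha6 and alpha7 bind laminins, and alpha5, alpha8 and alphaV bind ligands with an RGD motif. In melanoma, these receptors are known for roles in adhesion and invasion.

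Total estimated counts ranged from 4008293 in the GFP library of experiment 1 to 38184838 in the GFP library of experiment 2, and the other 10 libraries lay at 18365999 or above. The GFP library of experiment 1 was thus the shallowest by far, and each comparison with GFP rests on it. TYRO3 itself, the check of the labels, stood at 47.3 to 56.6 CPM (read counts scaled to the normalised library size) in the GFP libraries and at 1179.8 to 3690.3 CPM in the 9 libraries transfected with TYRO3. In experiment 1, these 3 libraries lay at 3060.6 CPM or above, higher than the 6 of experiments 2 and 3. The cells held melanocytic markers: summed over 8 genes, these stood at 2292.0 to 2785.8 CPM in GFP and at 1314.4 to 2551.9 CPM in the TYRO3 groups, and MITF and DCT were lower and called against GFP in dGS and dADAM. Sums over 5 leukocyte markers stayed at or below 2.34 CPM, and 6 keratinocyte markers summed to 37.4 to 52.9 CPM in GFP and to 31.8 to 53.0 CPM in the TYRO3 groups, of which KRT10 made up 30.3 to 51.8 CPM while KRT5 and KRT1 were at 0 in all libraries. Fibroblast markers, 6 genes, summed to 71.7 to 87.7 CPM in GFP and to 42.0 to 70.5 CPM in the TYRO3 groups, and of these LUM, a collagen-binding proteoglycan, was lower and called in all 3 comparisons with GFP. Endothelial markers, 4 genes, summed to 11.7 to 18.2 CPM in GFP and 12.7 to 33.1 CPM in the TYRO3 groups. KDR was higher and called in all 3 comparisons with GFP. In every library LUM and KDR held most of the counts of their lists. Of the 6 fibroblast markers, 2, 3 and 3 had positive log2 fold changes in WT, dGS and dADAM. Of the 3 endothelial markers tested, 2, 1 and 2 did. The part of these marker changes in the results was not tested.

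Levels were first set side by side per length, as TPM, which corrects for transcript length, summed over the protein-coding transcripts of each gene, because counts favour long genes. In these terms 24 of 44 collagens and 17 of 26 integrins had a median above 1 TPM over the 12 libraries. ITGB1, the beta chain shared by most collagen and laminin receptors, was the highest member at a median of 394.9 TPM (range 296.3 to 442.7). ITGB5, a partner of alphaV, followed at 109.7 TPM and ITGA6, a laminin-binding alpha chain, at 100.5 TPM, with overlapping ranges (69.3 to 140.6 and 67.7 to 113.8 TPM). Among collagens, the basement membrane chains COL4A2 (105.9 TPM, range 50.0 to 134.2) and COL4A1 (85.1 TPM, 62.2 to 108.7) and the fibril-associated COL9A3 (86.0 TPM, 72.0 to 93.9) overlapped one another. COL6A1, a collagen VI chain, was lower at 34.6 TPM (20.3 to 38.7), below the range of COL9A3. The main fibrillar collagens were scarce: COL1A1 had a median of 6.14 TPM, COL3A1 0.15 TPM, and COL1A2, at 0 to 10 counts per library, was not tested.

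**Figure D1:**
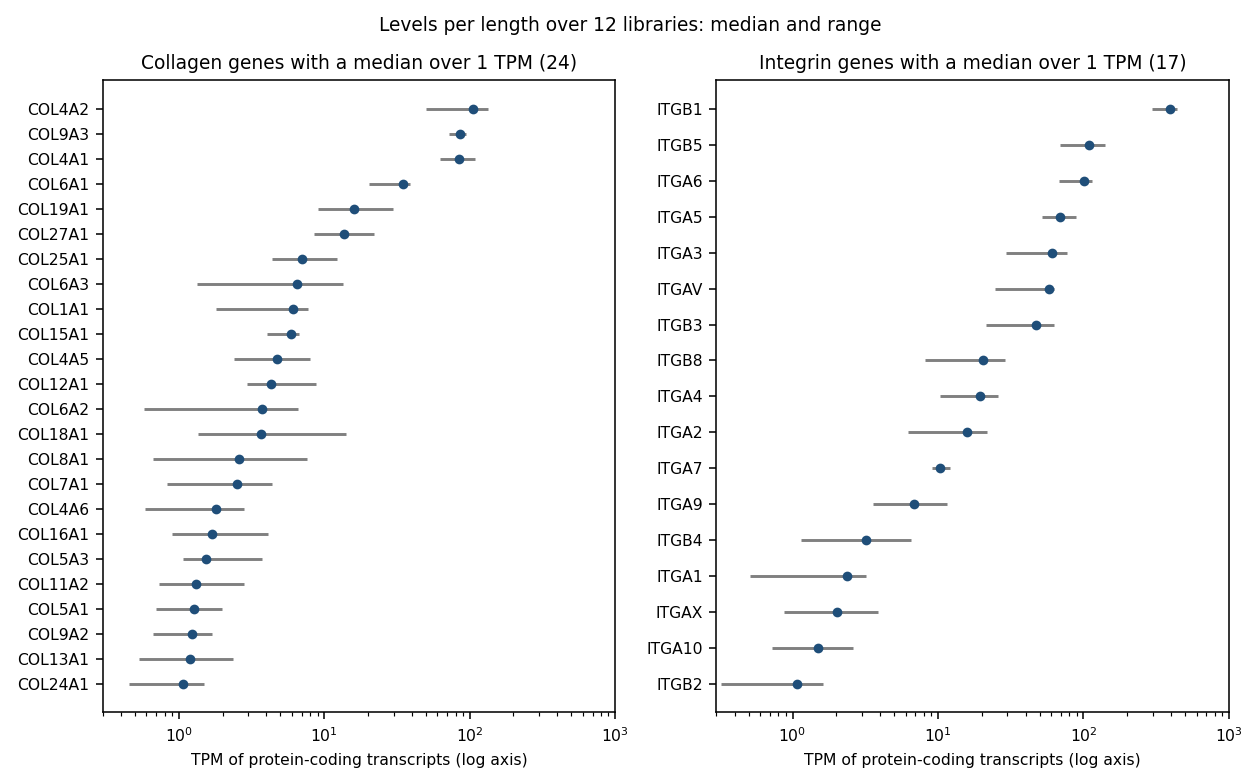
Levels of the 24 collagen genes (left) and 17 integrin genes (right) with a median over 1 TPM, counted over protein-coding transcripts, on a log axis. Points are medians of the 12 libraries and bars run from the lowest to the highest library. ITGB1, at a median of 394.9 TPM, stands to the right of every other member.

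For some genes the level depended on which transcripts were counted. ITGA1 had a median of 86.5 TPM over all its transcripts but 2.37 TPM over the protein-coding ones, since ITGA1-206, a processed transcript of 601 bases, held 42.3% of its counts and 79.4 TPM. ITGAE fell likewise from 57.8 to 0.067 TPM, with 65.0% of its counts on the 672-base processed transcript ITGAE-207. COL7A1 had 53.7% of its counts on the protein-coding COL7A1-201 and 37.1% on the retained-intron transcript COL7A1-210. By contrast, COL4A1, ITGA2, ITGB1, ITGB8 and COL19A1 each had over 95% on a single protein-coding transcript (96.5%, 98.0%, 98.3%, 97.6% and 97.5%). These shares are pooled over the 12 libraries. In single libraries that of COL4A1 fell to 75.6% in dGS and 90.7% in dADAM, and that of ITGA2 to 85.6% in GFP and 94.2% in dGS.

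Against GFP, 3 members were called in WT, 10 in dGS and 7 in dADAM, where called means a fold over 1.5 and an adjusted p of at most 0.05 in edgeR's quasi-likelihood test with a term for each experiment. In WT this was 5.26% of the 57 tested, beside 2.33% of all genes, in dGS 17.5% beside 4.62%, and in dADAM 12.3% beside 5.15%. By direction, 3, 7 and 4 members were higher, beside 1.64%, 2.77% and 3.12% of all genes, and 0, 3 and 3 were lower, beside 0.689%, 1.86% and 2.03%. In WT, 8 members were lower at an unadjusted p under 0.05 by edgeR, and 3 were called lower by DESeq2 (COL11A2, COL14A1 and ITGA10). Without the terms for the experiments, edgeR called 0 members in each of the 3 comparisons. COL6A3, COL4A6 and ITGA2 were higher in all 3 TYRO3 groups. COL19A1 was higher, and COL14A1 and ITGB8 lower, in dGS and dADAM. COL16A1, COL7A1 and ITGAM (higher) and ITGA4 (lower) were called in dGS, and ITGA10 (lower) in dADAM, which makes 11 members in all. ITGAM is counted in these numbers, but it passed the filter only through TYRO3 libraries and was not called by DESeq2. The 3 comparisons share the GFP libraries, so they are not independent of one another.

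**Figure D2:**
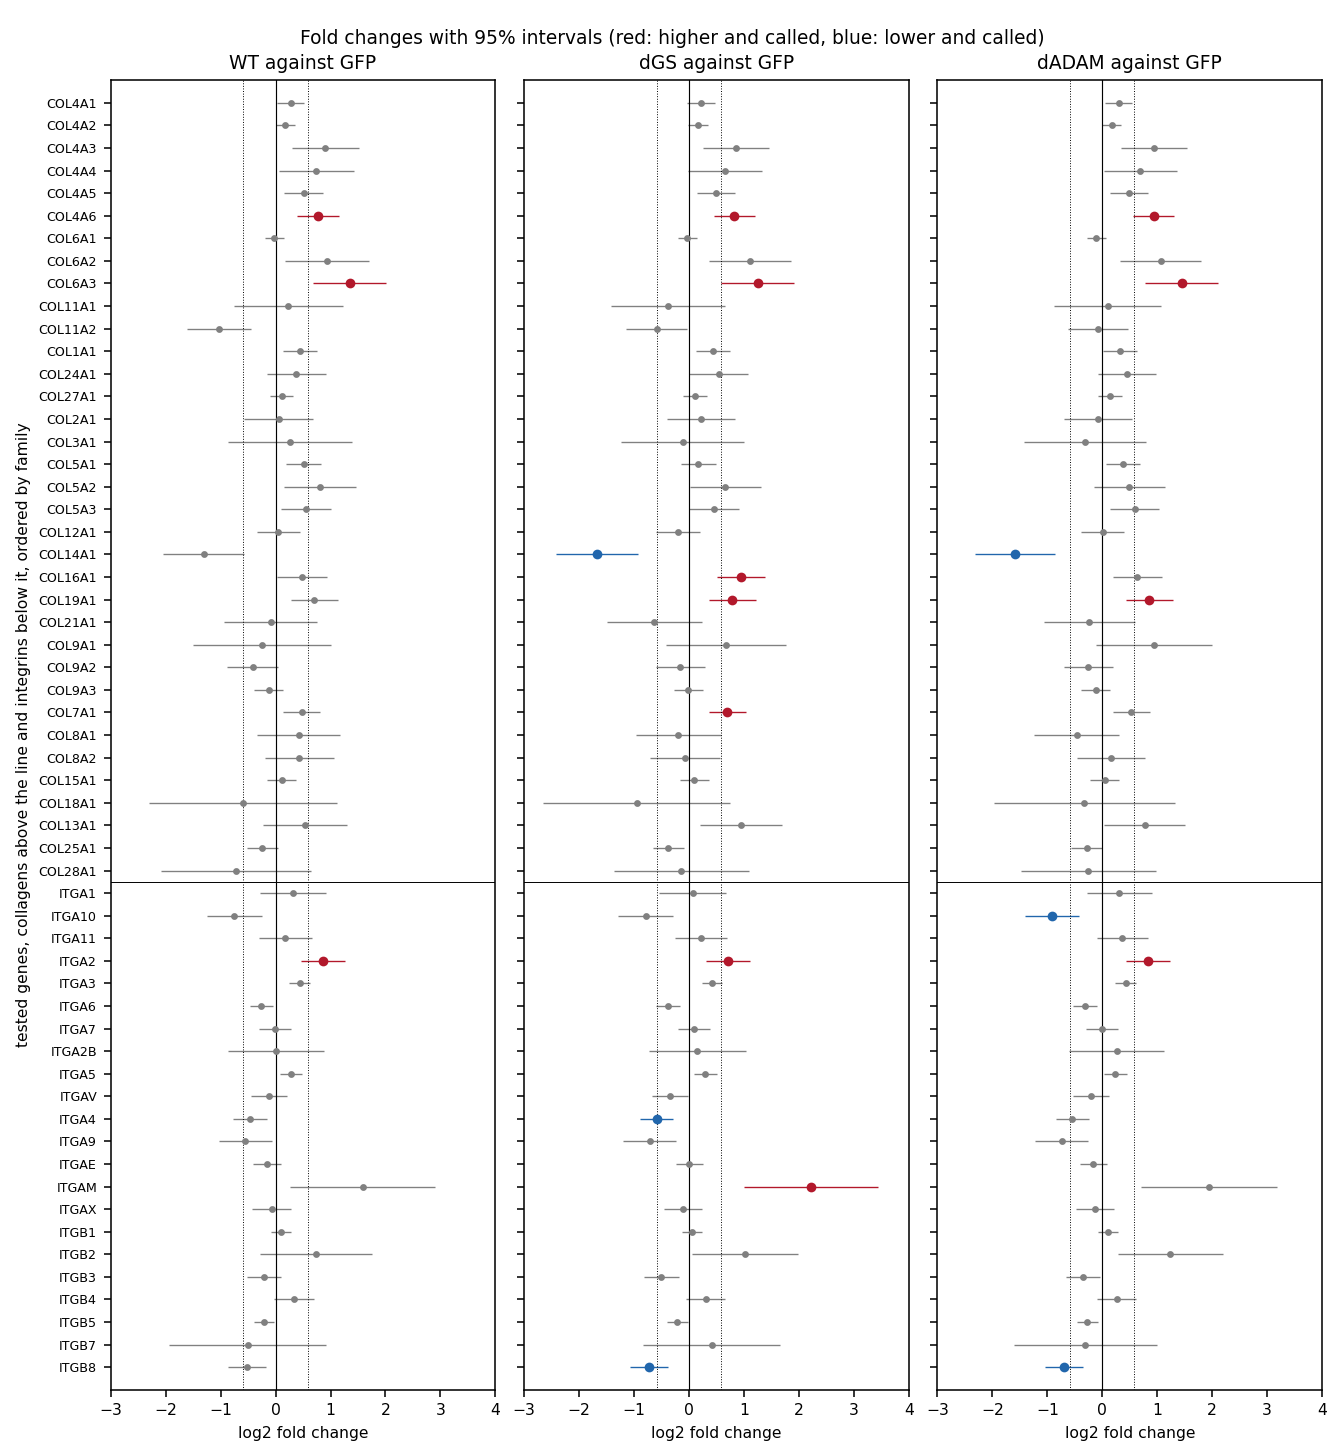
Log2 fold changes of the 57 tested members against GFP with 95% intervals, collagens above the line and integrins below it, for WT (left), dGS (middle) and dADAM (right). Red and blue mark members called higher and lower, and dotted lines mark a fold of 1.5. COL6A3, COL4A6 and ITGA2 are red in all 3 panels, and the highest estimate, ITGAM in dGS, has one of the widest intervals.

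As a group, collagens leaned upwards in the fit over the 3 experiments. In WT the median log2 fold change was 0.27 over 35 collagens and -0.04 over 22 integrins, beside -0.003 over all genes. The medians were 0.17 and 0.06 in dGS and 0.17 and -0.07 in dADAM. Collagens were higher than the GFP library in each of the 3 experiments for 18 of 35 genes in WT (51.4%), 12 in dGS (34.3%) and 17 in dADAM (48.6%), beside 24%, 23.8% and 24.6% of all genes. Collagens were lower in each experiment for 6, 4 and 2 of 35 genes (17.1%, 11.4% and 5.71%). Integrins were lower than GFP in each experiment for 8 of 22 genes in WT (36.4%), 8 in dGS (36.4%) and 9 in dADAM (40.9%), beside 26.2%, 21.8% and 26.9% of all genes. They were also higher in each experiment for 6, 6 and 7 of 22 genes (27.3%, 27.3% and 31.8%), so integrins spread both ways. These counts describe direction and carry no test. The 17 collagens higher in dADAM include COL9A1, and the 6, 6 and 7 integrins that were higher include ITGAM. Both genes passed the filter only through TYRO3 libraries, which favours a count as higher, and both enter the medians.

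Collagen VI forms beaded filaments around cells and needs chains from COL6A1, COL6A2 and a longer chain such as that of COL6A3. COL6A3 stood at 10.5, 23.9 and 14.0 CPM in the GFP libraries of experiments 1, 2 and 3. It stood at 82.9, 52.6 and 23.6 CPM in WT, at 77.0, 54.2 and 19.1 CPM in dGS and at 81.1, 49.8 and 31.1 CPM in dADAM. Every TYRO3 library was above the GFP library of its own experiment, and the dADAM libraries lay above all 3 GFP libraries, whereas WT and dGS of experiment 3 lay below the GFP library of experiment 2. The log2 fold change was 1.35 ± 0.30 (SE) in WT (adjusted p = 0.039, edgeR), 1.25 ± 0.30 in dGS (adjusted p = 0.031) and 1.44 ± 0.30 in dADAM (adjusted p = 0.018). The gap to GFP was 2.92 on the log2 scale in experiment 1, 1.12 in experiment 2 and 0.74 in experiment 3 for WT. On the transcript level, COL6A3-203 held 71.8% and COL6A3-209 23.3% of the COL6A3 counts.

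The other chains of collagen VI did not follow one pattern. COL6A2 had log2 fold changes of 0.94 ± 0.34, 1.12 ± 0.34 and 1.06 ± 0.34 in WT, dGS and dADAM, none of which passed in edgeR (adjusted p = 0.15, 0.066 and 0.070), while DESeq2 called it in all 3. It stood at 1.32, 5.88 and 3.34 CPM in GFP and between 4.44 and 13.6 CPM in the TYRO3 groups. COL6A1 had values near 0 in the 3 comparisons (-0.02, -0.03 and -0.11, each ± 0.08). The difference between the chains was not tested.

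Collagen IV builds the basement membrane network, and its 6 chain genes lie in head-to-head pairs. All 6 had positive log2 fold changes in the 3 comparisons, from 0.16 (COL4A2 in dGS) to 0.94 (COL4A3 in dADAM), but only COL4A6 was called. COL4A6 stood at 4.21, 6.21 and 2.83 CPM in GFP, at 11.96, 9.67 and 4.09 CPM in WT, at 12.8, 9.92 and 4.12 CPM in dGS and at 12.6, 10.6 and 5.01 CPM in dADAM. Each TYRO3 library was above the GFP library of its experiment, while those of experiment 3 lay below the GFP library of experiment 2. By edgeR the log2 fold change was 0.77 ± 0.17 in WT (adjusted p = 0.040), 0.83 ± 0.17 in dGS (adjusted p = 0.019) and 0.93 ± 0.17 in dADAM (adjusted p = 0.011).

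COL4A5, its neighbour, had 0.51 ± 0.16, 0.49 ± 0.16 and 0.49 ± 0.16 and did not pass (adjusted p = 0.098, 0.076 and 0.073, edgeR). The abundant pair COL4A1 and COL4A2 moved little, by 0.27 and 0.18 in WT, 0.22 and 0.16 in dGS, and 0.30 and 0.17 in dADAM. COL4A3 and COL4A4, both below 7 CPM in every library, had higher estimates (0.66 to 0.94) with standard errors of 0.27 to 0.31, and neither passed.

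The 5′ ends of COL4A6 and COL4A5 lie 347 bases apart on chromosome X in opposite directions, those of COL4A4 and COL4A3 112 bases apart on chromosome 2, while the genes COL4A1 and COL4A2 overlap at their 5′ ends on chromosome 13. The region between COL4A6 and COL4A5 is shown because it separates their annotated 5′ ends and both had positive fold changes. The region upstream of ITGA2 is shown because ITGA2 is the integrin called in all 3 comparisons. Which start gave the COL4A6 RNA was not tested. COL4A6-201 held 72.9% of the COL4A6 counts, but from 0% to 92.2% in single GFP libraries. Sequences are from RefSeq (GRCh38.p14), each on the strand of its gene and upstream of its annotated start: chrX:108439498-108439708 on the minus strand for COL4A6, chrX:108439588-108439837 on the plus strand for COL4A5, and chr5:52989102-52989325 on the plus strand for ITGA2. Capitals mark matches, on either strand, to CCAAT (the CCAAT box) or GGGCGG (the GC box).
COL4A6: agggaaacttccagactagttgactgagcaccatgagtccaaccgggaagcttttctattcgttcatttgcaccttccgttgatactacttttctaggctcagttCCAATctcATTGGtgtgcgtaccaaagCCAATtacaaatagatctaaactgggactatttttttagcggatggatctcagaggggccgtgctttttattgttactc
COL4A5: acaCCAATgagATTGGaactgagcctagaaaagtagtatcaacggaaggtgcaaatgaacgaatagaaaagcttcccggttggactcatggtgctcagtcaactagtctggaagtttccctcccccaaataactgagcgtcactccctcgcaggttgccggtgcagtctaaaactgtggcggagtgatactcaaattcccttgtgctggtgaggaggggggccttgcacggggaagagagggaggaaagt
ITGA2: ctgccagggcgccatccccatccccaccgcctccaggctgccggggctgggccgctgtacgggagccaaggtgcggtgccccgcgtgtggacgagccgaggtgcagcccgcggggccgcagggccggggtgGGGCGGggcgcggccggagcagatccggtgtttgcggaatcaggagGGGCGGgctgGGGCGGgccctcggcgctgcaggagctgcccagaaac
The COL4A6 and COL4A5 sequences share 121 bases, read from opposite strands, and a pair of CCAAT matches lies in the shared stretch. ITGA2 has 3 GC boxes in the bases shown and 4 in the 250 bases upstream of its RefSeq start. Over the 250 bases upstream, CCAAT was found in 33.0% of all 27305 promoters and 12 of the 49 matched members, GGGCGG in 42.3% and 25 members, TATAAA (the TATA box) in 11.1% and 6 members, TGANTCA (the AP-1 site) in 6.60% and 0 members, and TCATGTG (the M box of pigment cell genes) in 2.58% and 1 member. These are matches of letters, not sites of binding.

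Among the fibrillar collagens, 10 of 11 genes were tested and 0 were called by edgeR in the 3 comparisons, with 5, 5 and 3 at an unadjusted p under 0.05 in WT, dGS and dADAM. DESeq2 called COL11A2 (lower) in WT, 0 in dGS and COL5A3 (higher) in dADAM. COL1A1, at 7.69 to 16.5 CPM in GFP and 7.91 to 25.3 CPM in the TYRO3 groups, had 0.44 ± 0.14, 0.44 ± 0.14 and 0.33 ± 0.14 in WT, dGS and dADAM. COL27A1, the most abundant fibrillar gene by TPM, had 0.11, 0.11 and 0.14, each ± 0.10. COL11A2 had -1.03 ± 0.26 in WT (adjusted p = 0.055, edgeR), beside -0.58 ± 0.25 in dGS and -0.08 ± 0.25 in dADAM. It lies in the region of the MHC genes, where alternative haplotype sequences can split counts, and the part of this in its values was not tested.

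The fibril-associated collagens held members called in either direction. COL19A1 stood at 58.9, 60.5 and 52.0 CPM in GFP, at 137.6, 85.6 and 76.1 CPM in WT, at 159.3, 114.0 and 55.5 CPM in dGS, and at 154.2, 95.5 and 83.1 CPM in dADAM. WT and dADAM did not overlap GFP, and dGS did, through its library of experiment 3. Its log2 fold change was 0.71 ± 0.19 in WT, which did not pass (adjusted p = 0.069, edgeR), 0.79 ± 0.19 in dGS (adjusted p = 0.032) and 0.86 ± 0.19 in dADAM (adjusted p = 0.023).

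COL16A1 stood at 3.68, 3.34 and 2.28 CPM in GFP, at 6.48, 3.92 and 2.93 CPM in WT, at 6.32, 6.98 and 4.55 CPM in dGS, and at 5.95, 6.01 and 2.96 CPM in dADAM. Only the dGS libraries lay above all 3 GFP libraries. Its log2 fold change was 0.94 ± 0.20 in dGS (adjusted p = 0.020, edgeR), beside 0.48 ± 0.21 in WT and 0.64 ± 0.20 in dADAM (adjusted p = 0.21 and 0.067).

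COL14A1 was the only collagen that edgeR called lower against GFP, in dGS and dADAM. It stood at 2.37, 2.56 and 2.94 CPM in GFP, at 0.329, 1.22 and 1.55 CPM in WT, at 0.523, 0.952 and 0.832 CPM in dGS, and at 0.383, 1.15 and 1.01 CPM in dADAM, with no overlap between GFP and any TYRO3 group. Such groups without overlap, on either side of GFP, were seen for 11 of 57 members in WT, 10 in dGS and 16 in dADAM. These shares were 19.3%, 17.5% and 28.1%, beside 20.6%, 20.8% and 25.6% of all genes. Each count includes ITGAM, which passed the filter only through TYRO3 libraries. The log2 fold change of COL14A1 was -1.67 ± 0.34 in dGS and -1.59 ± 0.33 in dADAM (adjusted p = 0.018 for each, edgeR) and -1.31 ± 0.33 in WT (adjusted p = 0.055). Its counts were low, at 6 to 95 per library, with 9 in the GFP library of experiment 1. COL9A3, the most abundant of this family, was at 177.5 to 208.3 CPM in GFP and 158.1 to 217.0 CPM in the TYRO3 groups and was not called.

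COL7A1, the chain of the anchoring fibrils that tie basement membrane to dermis, stood at 22.9, 20.7 and 13.4 CPM in GFP, at 46.9, 26.3 and 14.0 CPM in WT, at 41.8, 31.8 and 22.0 CPM in dGS, and at 38.1, 28.7 and 18.7 CPM in dADAM. All TYRO3 libraries were above the GFP library of their experiment, while experiment 3 overlapped GFP of the others. Its rise in dGS was 0.70 ± 0.15 on the log2 scale (adjusted p = 0.021, edgeR), beside 0.48 ± 0.15 in WT and 0.52 ± 0.15 in dADAM (adjusted p = 0.11 and 0.052).

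**Figure D3:**
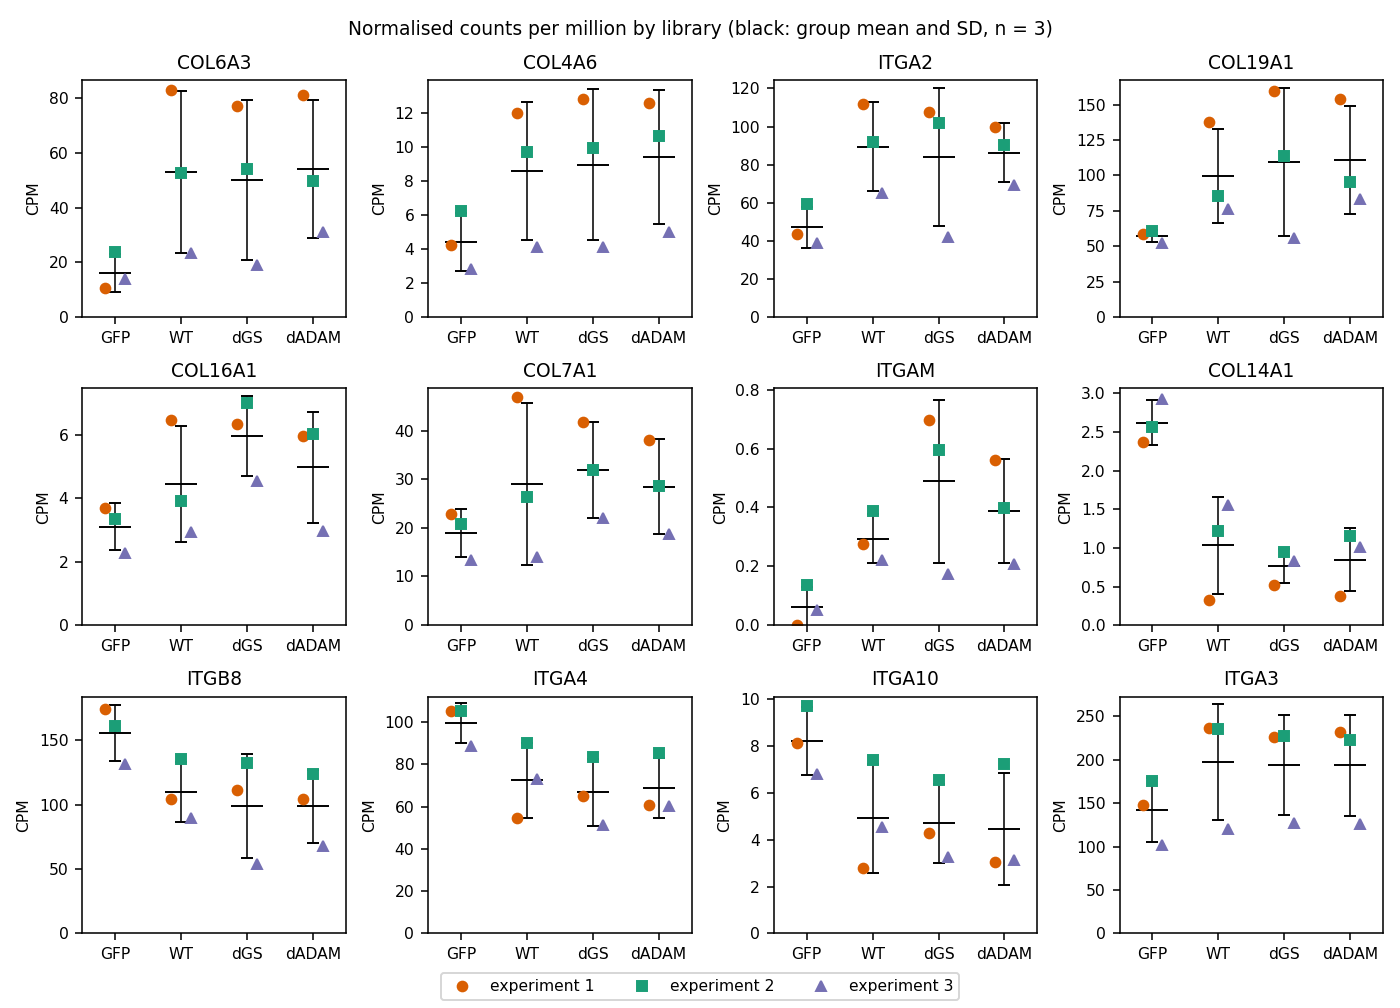
Normalised CPM in each library (linear axes from 0) for the 11 members called in any comparison with GFP and for ITGA3, by group, with the symbol and colour giving the experiment and black marks the group mean and SD (n = 3). For COL6A3 the libraries of experiment 1 reach 82.9 CPM against 10.5 CPM in GFP, whereas those of experiment 3 reach 31.1 CPM against 14.0 CPM. COL14A1 lies below all GFP libraries in the 9 TYRO3 libraries.

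Of the collagen-binding integrin alpha chains, ITGA2 rose in all 3 TYRO3 groups. With ITGB1 it forms the alpha2 beta1 receptor. It stood at 43.4, 59.4 and 38.8 CPM in GFP, at 111.7, 91.7 and 65.0 CPM in WT, at 107.6, 101.8 and 42.1 CPM in dGS, and at 99.6, 90.1 and 69.1 CPM in dADAM. WT and dADAM lay above all GFP libraries, and the dGS library of experiment 3 was within their range. The log2 fold change was 0.86 ± 0.18 in WT (adjusted p = 0.033, edgeR), 0.72 ± 0.18 in dGS (adjusted p = 0.037) and 0.83 ± 0.18 in dADAM (adjusted p = 0.021).

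ITGA10, another collagen-binding chain, had the opposite sign. It stood at 8.15, 9.74 and 6.83 CPM in GFP, at 2.80, 7.41 and 4.53 CPM in WT, at 4.27, 6.55 and 3.28 CPM in dGS, and at 3.07, 7.24 and 3.13 CPM in dADAM. Each TYRO3 library was below the GFP library of its experiment. In dADAM its log2 fold change was -0.92 ± 0.22 (adjusted p = 0.030, edgeR), beside -0.75 ± 0.23 in WT and -0.79 ± 0.23 in dGS (adjusted p = 0.092 and 0.054). ITGA1, the neighbour of ITGA2 on chromosome 5, had 0.31, 0.07 and 0.31 and was not called, and ITGA11 had 0.18, 0.22 and 0.37.

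Of the laminin-binding chains, ITGA3 and ITGA6 differed in sign. ITGA3 stood at 148.3, 175.0 and 102.1 CPM in GFP, at 236.7, 235.8 and 120.0 CPM in WT, at 226.5, 227.1 and 126.9 CPM in dGS, and at 231.7, 222.7 and 126.4 CPM in dADAM. It was higher than GFP within every experiment, and its log2 fold change of 0.44, 0.42 and 0.42, each ± 0.08, had an adjusted p of 0.023, 0.017 and 0.015 (edgeR) but did not reach a fold of 1.5, so it was not called. ITGA6 stood at 464.4, 402.1 and 398.0 CPM in GFP and at 277.7 to 365.2 CPM in the 9 TYRO3 libraries, with no overlap. Its log2 fold change was -0.26 ± 0.10 in WT, -0.38 ± 0.10 in dGS (adjusted p = 0.036, edgeR) and -0.31 ± 0.10 in dADAM, each short of the fold.

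ITGA4, which binds VCAM1 and fibronectin, stood at 105.2, 105.1 and 88.8 CPM in GFP, at 54.4, 90.0 and 73.1 CPM in WT, at 65.2, 83.4 and 51.5 CPM in dGS, and at 60.8, 85.2 and 60.3 CPM in dADAM. The dGS and dADAM libraries lay below all GFP libraries. In dGS it had a log2 fold change of -0.59 ± 0.14 (adjusted p = 0.027, edgeR), just past a fold of 1.5, and -0.54 ± 0.14 in dADAM (adjusted p = 0.034), just short of it. In WT it was -0.46 ± 0.14 (adjusted p = 0.086). ITGA9, the related chain, had -0.55, -0.72 and -0.74, each ± 0.22, and did not pass in edgeR (adjusted p = 0.18, 0.065 and 0.053), while DESeq2 called it in dGS and dADAM.

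Among beta chains, ITGB8 was the one called. It pairs with alphaV and binds latent TGF-beta. It stood at 174.3, 161.5 and 131.7 CPM in GFP, at 104.3, 135.3 and 89.7 CPM in WT, at 111.1, 132.3 and 54.1 CPM in dGS, and at 104.4, 123.8 and 68.2 CPM in dADAM. The dADAM libraries lay below all GFP libraries. The log2 fold change was -0.73 ± 0.16 in dGS (adjusted p = 0.021, edgeR), -0.70 ± 0.16 in dADAM (adjusted p = 0.023) and -0.52 ± 0.16 in WT (adjusted p = 0.091). ITGB1 stood at 855.1 to 858.7 CPM in GFP and 781.9 to 1001.2 CPM in the TYRO3 groups and was not called, nor was ITGB5, at -0.21, -0.21 and -0.27, each ± 0.08.

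The dGS library of experiment 3 stood apart for several integrins. ITGA1 was at 11.7 CPM there against 25.6 to 29.9 CPM in the other libraries of that experiment, ITGAV at 125.4 against 195.8 to 235.6 CPM and ITGB3 at 60.8 against 92.9 to 118.2 CPM. Without this library 6, 7 and 10 members were called in WT, dGS and dADAM, and ITGB8, ITGA4, COL14A1 and COL7A1 were no longer among those of dGS. Their log2 fold changes in dGS were then -0.51, -0.46, -1.49 and 0.61 (adjusted p = 0.037, 0.074, 0.055 and 0.055, edgeR), in the same direction as with it.

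ITGAM, the alpha chain of a leukocyte receptor, was called in dGS at a log2 fold change of 2.23 ± 0.55 (adjusted p = 0.033, edgeR). It had 0, 5 and 1 counts in GFP, 5, 7 and 5 in WT, 16, 15 and 4 in dGS and 19, 9 and 6 in dADAM. None of the GFP libraries reached 10 counts, so it was tested only through the TYRO3 libraries, and its filter favours a difference in that direction. Its partner ITGB2 stood at 0.455 to 0.526 CPM in GFP and 0.355 to 2.18 CPM in the TYRO3 groups and was not called.

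Among the 3 forms of TYRO3 no member was called. WT was compared with the mean of dGS and dADAM, and dGS with dADAM. By edgeR 0 of 57 members passed in each, beside 0% of all genes, with 3 and 0 members at an unadjusted p under 0.05 and 0 in each by DESeq2. The 3 were COL9A1, COL8A1 and COL11A2, chosen after their values were seen, with log2 differences of -1.05, 0.75 and -0.70. COL9A1 reached 10 counts in 3 libraries, all of dGS or dADAM, so its filter favours a difference in that direction. For the 11 members called against GFP, WT differed from the mean of the variants by -0.50 (ITGAM) to 0.32 (COL14A1) on the log2 scale. The 95% interval lay within a fold of 1.5 either way for 8 of the 11. For COL6A3 the interval was -0.53 to 0.54, for COL4A6 -0.41 to 0.20 and for ITGA2 -0.24 to 0.42. For dGS against dADAM 6 of the 11 intervals lay within that fold, and COL6A3 (-0.81 to 0.42), COL14A1, COL16A1, ITGA10 and ITGAM reached past it. Members called in dGS or dADAM and not in WT were therefore not shown to differ between the forms.

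**Figure D4:**
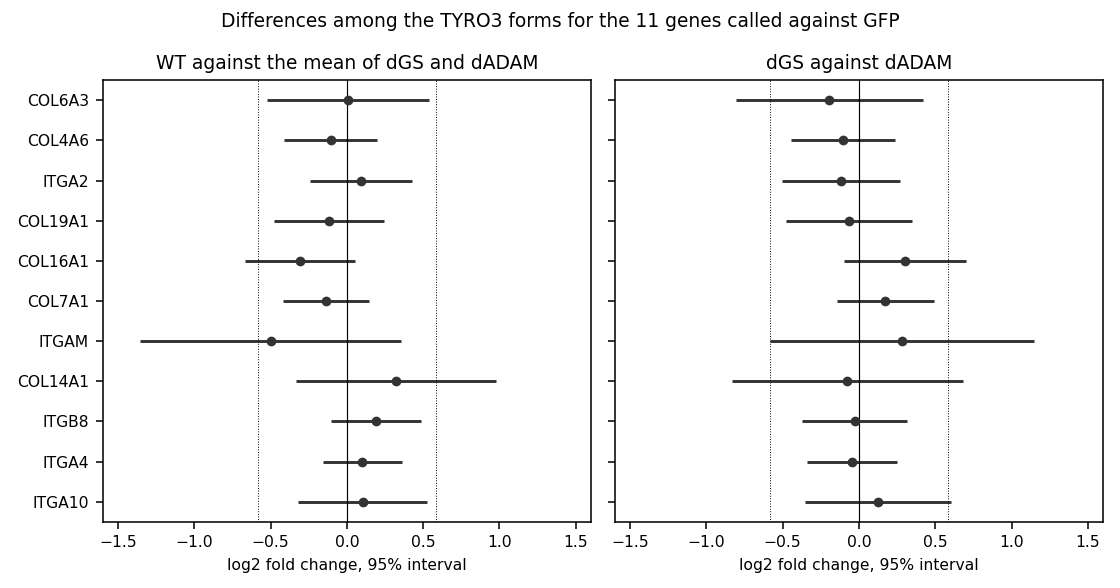
Log2 fold changes with 95% intervals among the TYRO3 forms for the 11 members called against GFP, for WT against the mean of dGS and dADAM (left) and dGS against dADAM (right). Dotted lines mark a fold of 1.5. The estimates run from -0.50 to 0.32 on the left and from -0.19 to 0.30 on the right, and every interval includes 0.

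The size of the differences varied with the experiment. In experiment 1, where the GFP library was shallow and the TYRO3 level highest, 54.4%, 56.1% and 56.1% of the 57 members lay past a fold of 1.5 from GFP in WT, dGS and dADAM, beside 25.4%, 22.8% and 23.9% of all genes. In experiment 2 these shares were 14%, 22.8% and 21.1%, beside 7.12%, 6.90% and 5.95%. In experiment 3 they were 10.5%, 29.8% and 21.1%, beside 6.14%, 16.6% and 13.6%. The part of depth and of the TYRO3 level in this was not tested. Without the GFP library of experiment 1, COL6A3 was still called in WT, and COL6A3, COL4A6 and COL14A1 in dGS and dADAM, but ITGA2 was not called in any. Its log2 fold changes were then 0.71, 0.56 and 0.68 in WT, dGS and dADAM (adjusted p = 0.11, 0.13 and 0.075, edgeR), in the same direction.

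**Figure D5:**
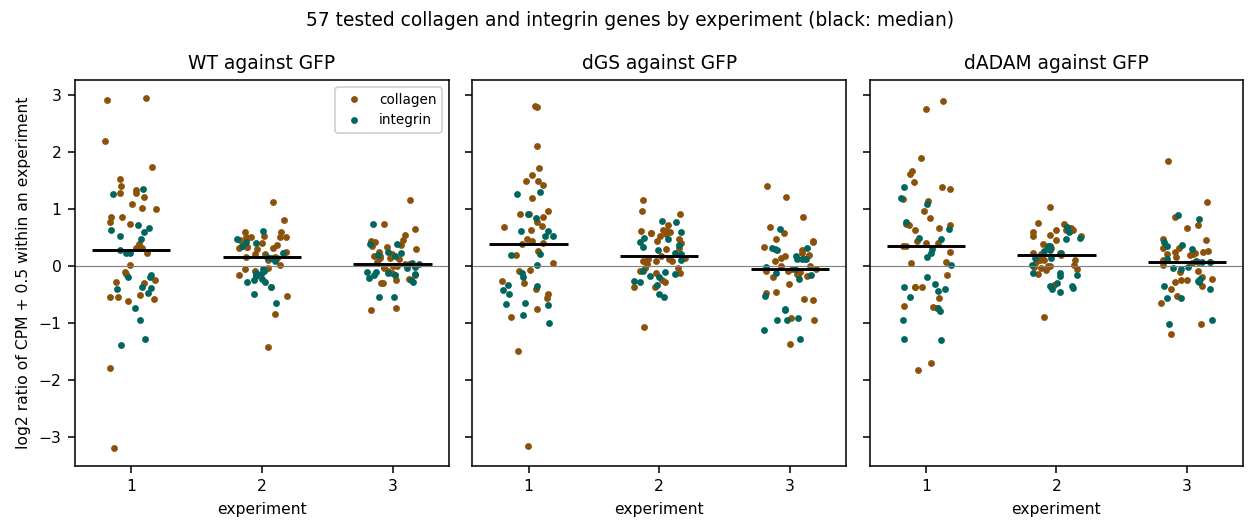
Log2 ratio of CPM (plus 0.5) to the GFP library of the same experiment for the 57 tested members, collagens in brown and integrins in green, with the median as a black line. The points of experiment 1 spread most, with a median absolute ratio of 0.62 to 0.70, against 0.31 to 0.33 in experiment 2 and 0.21 to 0.29 in experiment 3.

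The experiments also differed in level, whatever the plasmid. In experiment 3, 11 of 57 members (19.3%) were lower in all 4 libraries than in the 8 others, beside 3.90% of all genes. These were COL1A1, COL27A1, COL4A2, COL4A5, COL6A1, ITGA1, ITGA3, ITGA5, ITGA11, ITGAX and ITGB4. No member was higher there in all 4. COL18A1, the precursor of endostatin, was at 63.1 CPM in the GFP library of experiment 1 and at 5.31 to 20.3 CPM in the other 11.

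Genes that make, cut or bind collagen, or link integrins to the cell interior, were read from lists. Of 25 tested genes for collagen folding, modification and cross-linking, 0 were called against GFP in any group by edgeR or DESeq2, with 5, 2 and 9 at an unadjusted p under 0.05 by edgeR in WT, dGS and dADAM. Their median log2 fold changes were -0.09, 0.01 and -0.10, beside -0.003, 0.007 and -0.002 over all genes. Another list held collagenases, related proteases and TIMP genes, which encode inhibitors of metalloproteinases, and 12 of its genes were tested. Of these, MMP9, a gelatinase, was higher in all 3 groups (log2 fold change 0.70, 0.78 and 0.67). MMP1, an interstitial collagenase, was higher in dGS and dADAM (1.13 and 1.14), and MMP16 was lower in those groups (-0.73 and -0.61). MMP1 stood at 643.7, 743.0 and 374.9 CPM in GFP and at 482.2 to 2403.0 CPM in the TYRO3 groups. In WT it was called, also higher, by DESeq2 but not by edgeR.

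Of 21 other integrin ligands tested, THBS1, LAMB3 and LAMA3 were higher and called in all 3 groups. THBS1, or thrombospondin, had log2 fold changes of 1.11, 1.07 and 1.20, each ± 0.13. LAMB3 and LAMA3, chains of laminin-332, a ligand of integrins with alpha3 or alpha6, had 1.38, 1.503 and 1.47 and 0.89, 0.78 and 0.97. Of 6 other collagen receptors tested, DDR2, a receptor tyrosine kinase for fibrillar collagen, was higher and called in all 3, at 147.3 to 168.1 CPM in GFP and 177.8 to 433.4 CPM in the TYRO3 groups. Of 26 genes of the integrin adhesion complex, 1, 0 and 2 were called in WT, dGS and dADAM, beside 2.33%, 4.62% and 5.15% of all genes. Their median log2 fold changes were 0.01, -0.04 and -0.07. By edgeR FERMT1, a kindlin, was called in WT and dADAM (1.18 and 0.99) and PTK2B in dADAM (1.43). Both were higher, at 4.83 CPM or less. DESeq2 called 1, 2 and 3 of the 26 genes in WT, dGS and dADAM, all higher. These were FERMT1 in WT, FERMT3 and PTK2B in dGS, and all 3 of these genes in dADAM.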

How the data were processed

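PolyA RNA of 12 samples was sequenced. Per the labels, the authors used bcl2fastq, FastQC 0.11.9, Trimmomatic 0.33 and kallisto 0.46.0. The deposited files hold the estimated count and the TPM of each of 188753 Ensembl transcripts (GRCh38). The batch correction and DESeq2 analysis of the study came after these files.

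Here, transcripts were matched by identifier to GENCODE 29 (169797 matched, 97.4 to 97.5% of the counts) and their estimated counts summed per gene and rounded. Genes with 10 or more counts in at least 3 libraries were fitted in edgeR 4.0.16 (R 4.3.3), with TMM normalisation, terms for group and for each experiment, and quasi-likelihood F tests. P-values were adjusted by Benjamini-Hochberg over all 15248 genes in each of 5 comparisons. CPM use TMM library sizes. Standard errors and 95% intervals follow from the F statistic and its degrees of freedom. The fit was tested on simulated counts that held no differences between experiments, so that test does not bear on the experiment terms. Pairing by experiment comes from the labels. Deviations from the group means correlated at 0.027 to 0.52 (median 0.29) over 18 same-experiment pairs, and at -0.37 to 0.065 (median -0.13) over 36 others. Within an experiment, pairs of TYRO3 libraries had 0.32 to 0.52, while pairs of a GFP and a TYRO3 library had 0.027 to 0.26. The pairs with the GFP library of experiment 1, at 0.027 to 0.072, overlapped the range of the 36 others. Nothing states whether the experiments used separate thaws or passages of the cells, and p-values measure the spread between these libraries.

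Genes were named by rule: members called in any comparison, the 5 collagens and 5 integrins with the highest median TPM over all transcripts, and at most 3 called genes per list. Other members named, such as neighbours and chain partners, were chosen after their values were seen. The members and lists were chosen with earlier results of these data known. Alternatives were no experiment terms, a term for experiment 1 alone, RLE factors, DESeq2 1.42.0, other filters, fewer samples, protein-coding transcripts, counts from TPM, and limma 3.58.1 on log2 TPM with pseudocounts of 1 and 0.1. Promoter windows came from RefSeq (GRCh38.p14) by symbol, for 49 of 70 members, with bases inside the GENCODE gene left out of those shown.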

Additional observations from a re-analysis of the deposited data

How the results depend on the processing

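The 3, 10 and 7 members called against GFP in WT, dGS and dADAM depended on how the experiments were modelled. With no replicate block the counts were 0, 0 and 0, with 3, 4 and 5 of all genes called, so the calls rest on pairing by experiment. With a single term for experiment 1 they were 0, 0 and 1. With experiments 2 and 3 alone they were 0, 1 and 1. Tests on TPM gave few: 0, 0 and 1 on counts from TPM, 0, 0 and 3 by limma with a pseudocount of 1, and 0, 0 and 1 with 0.1. In WT the count was 8 by DESeq2, 6 without a filter, 0 with only the groups compared and 0 over protein-coding transcripts, and in dGS it was 4 with only the groups compared and 6 over protein-coding transcripts. Leaving out each library in turn gave 0 to 7 members in WT, 1 to 13 in dGS and 0 to 10 in dADAM. Without the dADAM library of experiment 3 dADAM had 0, without the dADAM library of experiment 1 it had 1, and without the dGS library of experiment 2 dGS had 1. The GFP library of experiment 1 left 1, 3 and 3 when it was removed, and that of experiment 3 left 1, 3 and 4. That of experiment 2 left 0 in WT and 6 in dGS. In WT, removal of the WT library of experiment 1 or 2 or the dADAM library of experiment 1 left 0, of the dGS library of experiment 2 or the dADAM library of experiment 3 left 1, and of the WT library of experiment 3 gave 7. In dGS, removal of the dGS library of experiment 1 left 4. Which feature of these libraries mattered was not tested. RLE factors and edgeR's own filter left each count within 1.5 times. The counts of 0 among the TYRO3 forms stayed at 0 in every alternative. Of 2497 single values of named members under the alternatives, 2262 kept their side of the threshold, 216 lost it and 19 gained it. The sign changed in 119, none of them called before or after, and 25 of these were against GFP, for COL9A3, COL6A1, COL27A1, ITGB1 and ITGA1. Depth limits the low members most, since the 16 tested members that missed 10 counts in some library all did so in the GFP library of experiment 1.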
